A study of Homo sapiens with 38 samples.

Results

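The genes described here are the SOX, forkhead (FOX), T-box (TBX), ZIC, Krüppel-like (KLF) and GATA transcription factors measured in the neuroblastoma line SH-SY5Y, human cells that can be driven to a neuron-like shape with retinoic acid. They were chosen by symbol alone: SOX, TBX or KLF with a number, FOX with a letter and a number, ZIC1 to ZIC5, and GATA1, GATA4, GATA5 and GATA6. The rule found 55 of the 15378 genes of the larger experiment and 54 of the 14820 genes of the heterozygote experiment, 56 genes in all and 53 in both. In the larger experiment these were 11 SOX, 20 FOX, 8 TBX, 2 ZIC, 12 KLF and 2 GATA genes, and each passed the filter of a mean normalized count of at least 5. GATA5 and TBX1 were measured only there, and FOXP3 only in the heterozygote experiment. The other genes that the rule would take were not in the tables used here.

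Polyadenylated RNA was sequenced from 38 libraries. In the larger experiment there were 10 groups of 3. Wild-type cells and cells lacking p53, p53 with USP7, or p53 with BCOR were each taken undifferentiated and after neural differentiation. The other 2 groups were differentiated wild-type cells given DMSO (vehicle) or FT671, an inhibitor of the deubiquitinase USP7. The heterozygote experiment compared 2 libraries of USP7-heterozygous cells with 2 of wild type before and again after differentiation, which makes 4 groups. Differentiated cells had spent 10 days in Neurobasal-based medium with B27 and 10 µM retinoic acid, and undifferentiated cells had grown in DMEM/F-12 with serum, so that retinoic acid and the change of medium cannot be told apart. Both double knockouts also lack p53 and are compared with the p53 knockout, so the effects of USP7 and of BCOR loss share their control libraries. BCOR is a scaffold of a noncanonical Polycomb complex. The labels give neither the number of clones behind a genotype, nor the dose or duration of FT671, nor whether libraries of a group came from separate cultures, so that p-values measure the spread between these libraries, which may be technical.

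SOX and forkhead proteins, T-box, ZIC, Krüppel-like and GATA factors each bind DNA through the domain that names their family, and many of them set cell identity in the embryo. In the sympathoadrenal lineage, from which neuroblastoma arises, SOX11 and SOX4 act in the growth of sympathetic precursors, and SOX9 is an early neural crest factor that also directs cartilage. FOXM1 drives mitotic genes in dividing cells, and FOXO factors, held in check by insulin signalling through AKT, act on stress and metabolic genes. FOXO4 is a known substrate of USP7. KLF7 promotes and KLF9 restrains axon growth in neurons.

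Promoter sequences are printed for genes that moved together below: FOXO1, KLF9 and KLF2 were higher, and FOXN4 and FOXE1 lower, in both double knockouts than in the p53 knockout. Each is the 250 bases before the annotated start, 5′ to 3′ on the gene's strand, from RefSeq on GRCh38.p14, whereas the reads were aligned to hg19. Capitals mark the dinucleotide CG (CpG), which reads the same on both strands.
FOXO1: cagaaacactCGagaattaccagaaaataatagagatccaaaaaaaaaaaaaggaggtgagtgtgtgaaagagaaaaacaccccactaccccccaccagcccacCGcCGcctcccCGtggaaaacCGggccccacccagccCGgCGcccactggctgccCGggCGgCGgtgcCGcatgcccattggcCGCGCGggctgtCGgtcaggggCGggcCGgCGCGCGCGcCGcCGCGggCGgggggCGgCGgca
KLF9: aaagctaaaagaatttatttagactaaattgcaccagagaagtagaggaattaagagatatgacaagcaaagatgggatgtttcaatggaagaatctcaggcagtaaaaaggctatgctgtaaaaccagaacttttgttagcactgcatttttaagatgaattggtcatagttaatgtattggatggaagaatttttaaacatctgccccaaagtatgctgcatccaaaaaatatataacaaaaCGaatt
KLF2: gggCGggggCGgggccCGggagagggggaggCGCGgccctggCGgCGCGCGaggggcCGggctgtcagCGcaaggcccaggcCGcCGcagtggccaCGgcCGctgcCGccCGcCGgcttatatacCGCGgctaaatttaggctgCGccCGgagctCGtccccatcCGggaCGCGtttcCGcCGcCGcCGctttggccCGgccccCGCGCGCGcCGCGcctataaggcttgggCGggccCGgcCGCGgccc
FOXN4: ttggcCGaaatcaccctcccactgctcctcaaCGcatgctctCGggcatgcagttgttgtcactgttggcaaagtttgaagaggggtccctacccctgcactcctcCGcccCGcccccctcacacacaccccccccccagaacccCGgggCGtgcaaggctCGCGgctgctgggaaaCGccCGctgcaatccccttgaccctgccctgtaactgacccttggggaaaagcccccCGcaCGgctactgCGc
FOXE1: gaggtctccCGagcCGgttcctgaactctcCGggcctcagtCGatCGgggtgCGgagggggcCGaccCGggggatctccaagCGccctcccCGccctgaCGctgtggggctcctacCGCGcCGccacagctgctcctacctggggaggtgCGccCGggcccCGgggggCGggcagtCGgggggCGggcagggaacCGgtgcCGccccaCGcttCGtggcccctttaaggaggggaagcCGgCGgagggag
They lie at chr13:40666642-40666891 (FOXO1, minus strand), chr9:70414658-70414907 (KLF9, minus), chr19:16324576-16324825 (KLF2, plus), chr12:109309285-109309534 (FOXN4, minus) and chr9:97852976-97853225 (FOXE1, plus). They held 27, 1, 41, 14 and 26 CpG, in that order, so the genes that were higher spanned both the sparsest and the densest of these sequences. Of the 56 genes, 43 had at least 1 start in the RefSeq table, with 68 windows from 250 bases before to 50 after a start. Their median was 23.5 CpG per window, against 14 over all 35116 windows, and 69.1% of them held at least 10 CpG, against 56.4% of all. Binding of BCOR or USP7 to these sequences was not measured.

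Libraries held 16149022 to 17946790 reads in genes. Values below are normalized counts (reads over the library's size factor), given per library or as mean ± SD (n = 3, or n = 2 in the heterozygote experiment). Values called log2 are fold changes ± SE from limma on log2(normalized count + 1), and a gene was called, and is said to rise, fall or be higher or lower, at an adjusted p below 0.05 over all genes. In undifferentiated cells USP7 fell from 3024 ± 47.3 in the p53 knockout to 495 ± 104 in the p53;USP7 knockout, and BCOR from 3605 ± 320.5 to 1029.8 ± 31.6 in the p53;BCOR knockout. The USP7 heterozygote held 1866 ± 17.3 against 3172 ± 22.5. The 12 measured sympathoadrenal markers of 12 summed to between 28400.1 (a differentiated p53;USP7 knockout library) and 318232 (a differentiated p53;BCOR knockout library). CHGA made up most of the latter, and without it the differentiated p53;BCOR knockout libraries held 36649 to 41517. TH, the rate-limiting enzyme of catecholamine synthesis, had a mean of at most 133 ± 15.9, the level with FT671. The third undifferentiated p53-knockout library held muscle markers at a sum of 10909, against at most 288 in the other 29 libraries. The third undifferentiated p53;USP7 knockout library stood apart from its group, with a median distance of 0.376 on the log2 scale from the mean of the other 2 libraries, against 0.253 and 0.144 for those and at most 0.117 elsewhere in the experiment. Counts of members and the fold changes of single members given below that use this library are, at first mention, also given without it. Bounds over several members and values of listed genes outside the rule use all libraries unless stated.

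Most of the genes moved in differentiation. In wild-type cells 21 of 55 rose and 25 fell, with 65.7% of all genes called, 32.4% up and 33.4% down, and in p53-knockout cells 22 rose and 24 fell (69% of all genes called, 35.6% up and 33.5% down). In p53;USP7 knockout cells 23 rose but only 12 fell (65.5% of all genes called, 33.9% up and 31.6% down), and in p53;BCOR knockout cells 15 rose and 28 fell (57.1% of all genes called, 27% up and 30.1% down). The median log2 change was -0.11, -0.18, 0.24 and -0.50 in these 4 genotypes, beside medians of -0.01, 0.01, 0.01 and 0.00 over all genes. Without the third undifferentiated p53;USP7 knockout library 18 rose and 16 fell in p53;USP7 knockout differentiation.

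Loss of p53 alone moved fewer of them: 11 were higher and 8 lower in undifferentiated cells (22.2% of all genes called, 12.2% up and 10.1% down), and 14 higher and 2 lower in differentiated cells (29.8% of all genes called, 17.8% up and 12% down). With USP7 lost as well as p53, and p53 loss alone as the control, there were 15 higher and 25 lower in undifferentiated cells (57.3% of all genes called, 28.9% up and 28.4% down; 17 and 23 without the third library, and 26 calls in all when only these 2 groups were fitted) and 21 and 22 in differentiated cells (63.7% of all genes called, 30.7% up and 33% down). Loss of BCOR gave 28 higher and 19 lower (69.4% of all genes called, 35.6% up and 33.7% down) in undifferentiated and 18 and 26 (62.3% of all genes called, 29.4% up and 32.9% down) in differentiated cells. With FT671 against vehicle, 21 were higher and 20 lower (65.1% of all genes called, 33% up and 32.1% down). The interaction of USP7 loss with differentiation was called for 20 genes in the positive and 15 in the negative direction (42.1% of all genes called, 20.9% up and 21.2% down; 19 and 19 without the third undifferentiated p53;USP7 knockout library), and that of BCOR loss for 15 and 25 (63.8% of all genes called, 29.3% up and 34.4% down). For p53 loss it was called for 9 and 4 (18.1% of all genes called, 10.2% up and 7.87% down). Set directly against the p53;BCOR knockout, the p53;USP7 knockout had 11 members higher and 30 lower in undifferentiated cells (65.2% of all genes called, 32.2% up and 33% down; 14 and 28 without that library) and 25 higher and 17 lower in differentiated cells (60.9% of all genes called, 32.3% up and 28.6% down). Leaving out the p53-knockout library with muscle transcripts changed the counts of the 7 comparisons that use it by at most 4 genes, and no fold change of a called gene by more than 0.18 on the log2 scale. For p53 loss in undifferentiated cells, 14 of the 19 calls stayed without it, and those of SOX6, TBX2, KLF16, KLF15 and KLF13 were lost. There were then 8 higher and 8 lower.

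**Figure D1:**
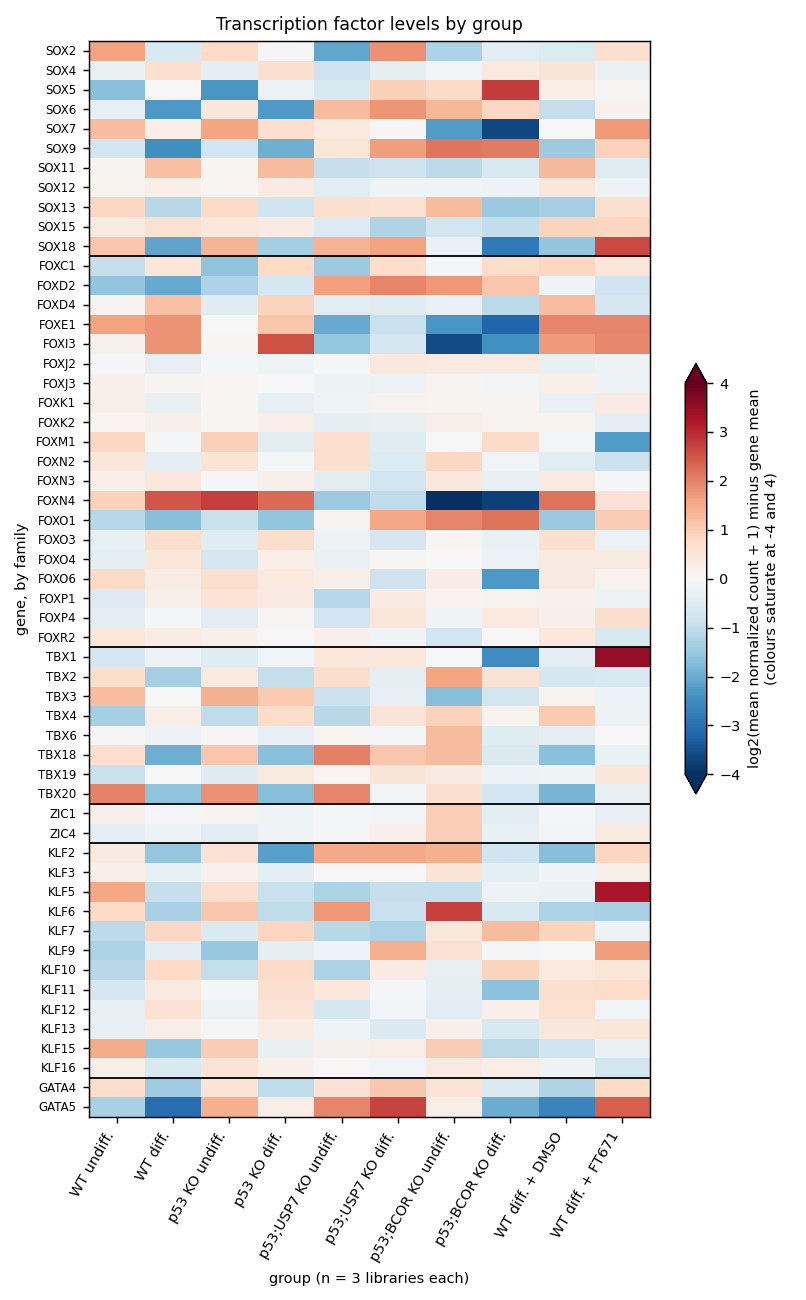
Level of each of the 55 transcription factors (rows, by family) in the 10 groups of the larger experiment (columns), as log2(mean normalized count + 1) minus the gene's mean over the groups, with n = 3 libraries per group. SOX9 stands above its own mean in both double knockouts in both states, and SOX11 and FOXN4 stand below theirs.

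SOX11 and SOX4, of the SoxC group that acts in neuronal differentiation, rose on differentiation and were lower where USP7 was lost or inhibited. SOX11 stood at 5144, 4929 and 5066 in the undifferentiated and 10744, 10932 and 10314 in the differentiated wild-type libraries (log2 1.08 ± 0.06), and at 4779, 4582 and 5074 and 11377, 10884 and 11598 in the p53 knockout (log2 1.23 ± 0.06). In the p53;USP7 knockout it was 2740.4, 2521 and 2143 before and 2555, 2759.6 and 2637 after differentiation. These 2 groups overlapped, and every differentiated p53;USP7 knockout library lay below every differentiated p53-knockout library (log2 -2.09 ± 0.06). The interaction of USP7 loss with differentiation was log2 -1.12 ± 0.09 (-1.22 without the third undifferentiated p53;USP7 knockout library). In p53;BCOR knockout cells SOX11 went from 2248, 2273 and 2284 to 3012, 3047 and 3014, also below both p53-knockout groups (log2 -1.08 ± 0.06 and -1.90 ± 0.06). With FT671 it was 3503, 3274 and 3186, against 11253, 11426 and 11668 with vehicle (log2 -1.79 ± 0.06). The largest adjusted p among these SOX11 changes was 2.9e-11.

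SOX4 rose from 6236, 6147 and 6264 to 12521, 12271 and 11158 in wild-type cells (log2 0.95 ± 0.08). In differentiated cells it was 11795, 11077 and 12240.2 in the p53 knockout and 5706, 5670.4 and 5759 in the p53;USP7 knockout (log2 -1.03 ± 0.08). FT671 gave 6738, 6096 and 6036 against 11120.3, 10653 and 10674 with vehicle (log2 -0.78 ± 0.08). The differentiated p53;BCOR knockout, at 9793, 10158 and 9788, was nearer to the p53 knockout (log2 -0.24 ± 0.08, a call lost without the third p53-knockout library, adjusted p = 0.0605), and the undifferentiated one was slightly higher than its control (log2 0.27 ± 0.08). SOX12, the third SoxC gene, moved less, by log2 -0.50 ± 0.10 with USP7 loss, -0.53 ± 0.10 with BCOR loss and -0.67 ± 0.10 with FT671 in differentiated cells. With all libraries, adjusted p was at most 0.0137 (SOX4) for these changes. In bulk RNA, fewer cells that express a gene and less RNA per cell cannot be told apart.

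SOX9, of the SoxE group, moved the other way. It fell on wild-type differentiation, from 589, 559 and 625 to 185, 173 and 183 (log2 -1.71 ± 0.08), and in the p53 knockout from 590.3, 606 and 535 to 239, 267 and 261 (log2 -1.17 ± 0.08). The p53;USP7 knockout held 1574, 1358 and 1238 undifferentiated and 3028, 3170.4 and 3241 differentiated (log2 1.18 ± 0.08 for differentiation). The undifferentiated and differentiated p53;USP7 knockout groups lay above all p53-knockout libraries and all wild-type libraries without FT671 (log2 1.26 ± 0.08 and 3.62 ± 0.08 against the p53 knockout). The p53;BCOR knockout stood higher still in undifferentiated cells, at 4345, 4510.5 and 4235, and held 3942, 4107 and 4329.8 in differentiated cells (log2 2.92 ± 0.08 and 4.01 ± 0.08). FT671 gave 1944, 1859 and 1775 against 412, 339 and 336 with vehicle (log2 2.36 ± 0.08). Vehicle itself was above untreated cells (log2 1.00 ± 0.08). Interactions with differentiation were log2 2.36 ± 0.11 for USP7 and 1.09 ± 0.11 for BCOR loss. Without the third undifferentiated p53;USP7 knockout library, log2 was 1.34 for USP7 loss, 1.10 for differentiation and 2.28 for the interaction. No adjusted p among these SOX9 changes exceeded 2.8e-09.

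**Figure D2:**
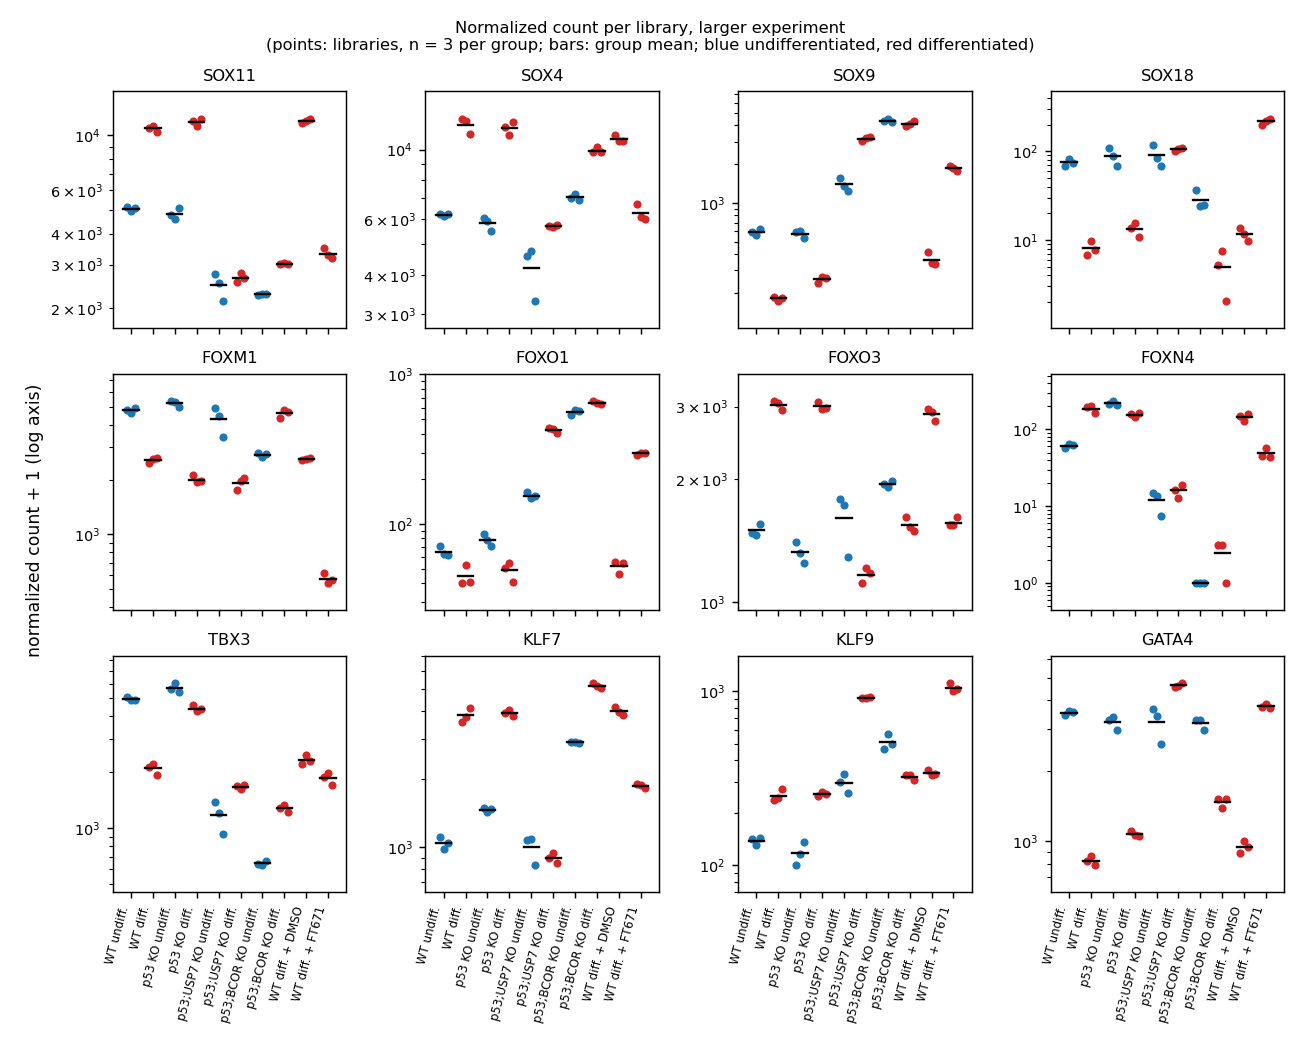
Normalized count per library (points, log axis of normalized count + 1) and group mean (bar) of 12 transcription factors in the 10 groups of the larger experiment. SOX9 and FOXO1 are high in the double knockouts and with FT671, SOX11 and FOXN4 are low there, and GATA4 is low in differentiated cells except in the p53;USP7 knockout and with FT671.

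SOX5, SOX6 and SOX13, the SoxD genes, of which SOX5 and SOX6 work with SOX9 in cartilage, did not move as 1 group. SOX5 was 46.6, 45.1 and 56.1 and 155, 155 and 170.4 before and after wild-type differentiation (log2 1.69 ± 0.12). It was 139, 142 and 119 in the differentiated p53 knockout, 300.2, 302 and 311 in the p53;USP7 knockout and 1079.7, 1127 and 1116 in the p53;BCOR knockout, 3 groups without overlap (log2 1.19 ± 0.12 and 3.05 ± 0.12). Its change with FT671 was log2 -0.21 ± 0.12, adjusted p = 0.146. SOX6 fell from 61.8, 51.1 and 63.1 to 12.5, 10.6 and 20.1 in wild-type cells (log2 -2.00 ± 0.23). It was 21.6, 14.6 and 7.8 in the differentiated p53 knockout, against 231, 258 and 276 in the p53;USP7 and 154, 133 and 112 in the p53;BCOR knockout (log2 4.13 ± 0.23 and 3.19 ± 0.23). FT671 gave 79.7, 78.6 and 90.8 against 35.9, 41.1 and 36.6 (log2 1.11 ± 0.23). SOX6 thus had an interaction of log2 3.33 ± 0.33 for USP7 loss (3.18 without the third undifferentiated library) and 2.31 ± 0.33 for BCOR loss. In the called changes the adjusted p reached 0.00014 (SOX6) at most.

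SOX13 fell from 239, 252 and 206 to 53.8, 53.9 and 72.7 in wild-type cells (log2 -1.94 ± 0.15) and from 244, 225 and 210.3 to 65.9, 69.1 and 93.6 in the p53 knockout (log2 -1.57 ± 0.15). The p53;USP7 knockout held 231, 221 and 171 and 184, 206 and 213, with overlap between its undifferentiated and differentiated libraries. Without the third undifferentiated library, at 171, the undifferentiated libraries lay above the differentiated ones, by a change that did not pass the test (log2 -0.17, adjusted p = 0.325). The differentiated libraries were above the p53 knockout (log2 1.40 ± 0.15, interaction 1.54 ± 0.21, or 1.40 without the third undifferentiated library). FT671 gave 205, 217 and 191 against 58.2, 49.9 and 46.2 (log2 1.97 ± 0.15). In the p53;BCOR knockout SOX13 fell from 356, 315 and 292 to 51.7, 47.2 and 39.7 (log2 -2.77 ± 0.15), and its differentiated level was lower than in the p53 knockout (log2 -0.70 ± 0.15). Of all the called changes, the weakest had an adjusted p of 0.00014.

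Of the 13 genes listed as cartilage targets of SOX9, SOX5 and SOX6, 8 were measured, and all 8 were higher with FT671. Their median log2 change was 2.10, beside -0.01 over all genes, of which 65.1% were called and 33% were higher. COL2A1, the main collagen of cartilage, stood at 8.09 ± 1.55 with vehicle and 4822 ± 215 with FT671. COL9A2 rose from 85.1 ± 2.85 to 627 ± 39.3 (log2 2.87 ± 0.15) and COL11A2 from 346 ± 34.9 to 1943 ± 28.6 (log2 2.49 ± 0.14). With USP7 loss 5 of 8 were higher and 0 lower in undifferentiated cells (57.3% of all genes called). In differentiated cells 3 were higher and 1 lower (63.7% of all genes called). With USP7 loss COL2A1 went from 2.71 ± 2.09 to 1657 ± 342 in undifferentiated and from 6.85 ± 1.73 to 4689 ± 344 in differentiated cells. With BCOR loss, where SOX9 was also high, 1 was higher and 6 lower in differentiated cells (median log2 -1.22, all genes -0.01, 62.3% of all genes called). COL2A1 was at 3.83 ± 1.6 and 81.9 ± 15.7 in the p53;BCOR knockout before and after differentiation. Of the 6 chondrocyte markers 3 were measured (COL2A1, COL9A1 and COMP, all of them also in the target list).

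SOX2, a progenitor factor that a longer noncoding gene overlaps, and SOX18 and SOX7, SoxF genes of endothelium, were expressed at low counts. SOX2 fell from 80.4 ± 8.31 to 16.6 ± 3.85 in wild-type cells (log2 -2.23 ± 0.23). In p53;USP7 knockout cells it rose from 5.34 ± 2.35 to 94 ± 4.53 (log2 3.97 ± 0.23, or 3.72 without the third library), and the interaction of USP7 loss with differentiation was log2 4.74 ± 0.32 (4.49 without it). FT671 gave 41.2 ± 5.28 against 17.4 ± 3.22 (log2 1.20 ± 0.23). SOX18 was 67.8, 81.1 and 73.2 and 5.77, 8.66 and 6.7 in undifferentiated and differentiated wild-type libraries (log2 -3.23 ± 0.30). It was 12.8, 14.6 and 9.75 in the differentiated p53 knockout and 101, 104 and 109.7 in the p53;USP7 knockout (log2 3.00 ± 0.30), and the interaction was log2 3.00 ± 0.42 (2.82 without the third library). FT671 gave 199, 219 and 233 against 12.6, 10.8 and 8.66 (log2 4.23 ± 0.30), while BCOR loss gave a lower level in both states (log2 -1.65 ± 0.30 and -1.61 ± 0.30). The largest adjusted p among these changes was 4.0e-05 (SOX2). SOX2 also rose in p53;BCOR knockout differentiation, from 8.36, 12.5 and 10.5 to 16.9, 18.2 and 21.5, and its interaction with BCOR loss was called positive. Its level in the differentiated p53;BCOR knockout did not pass the test against the p53 knockout.

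SOX7 differed between the ways of losing USP7 activity. It was 52.1, 51.6 and 56.6 in the differentiated p53 knockout and 30.9, 40.01 and 32.9 in the p53;USP7 knockout (log2 -0.62 ± 0.23), but 40.8, 31.3 and 27.9 with vehicle and 83.6, 126 and 125 with FT671 (log2 1.71 ± 0.23). The difference between both effects was log2 2.33 ± 0.33. The call with USP7 loss was lost without the first or the third p53;USP7 knockout library or the third p53-knockout library (adjusted p = 0.0736, 0.0551 and 0.0594). It was lowest in the p53;BCOR knockout, at 7.31, 4.17 and 7.32 and 2.11, 2.15 and 1.07 (log2 -3.84 ± 0.23 and -4.32 ± 0.23). SOX15 was lower in both double knockouts, at 13.7 ± 1.86 and 16.4 ± 6.64 against 42.3 ± 5.85 in differentiated cells (log2 -1.56 ± 0.32 and -1.38 ± 0.32), and at 61.3 ± 2.34 and 61.8 ± 2.34 with FT671 and vehicle. With all libraries, adjusted p was at most 0.0205 (SOX7) for these changes. The 5 measured endothelial markers of 7 summed to 30.5 to 37.1 in the differentiated p53 knockout, 322 to 333 in the p53;USP7 knockout, 45.6 to 64.5 with vehicle and 119 to 137 with FT671, with none of them at 0 in a whole group. Without KDR, which had a mean of 1.3 ± 1.49 in the p53 knockout and 296 ± 7.51 in the p53;USP7 knockout, the sums of both groups overlapped, at 29.5 to 37.1 and 28.3 to 33.9, while those with vehicle were 42.7 to 60.6 and those with FT671 91.8 to 107. With USP7 loss 2 of the 5 were higher and 2 (VWF and CLDN5) lower, and with FT671 2 were higher and 1 lower (63.7% and 65.1% of all genes called). In the p53;BCOR knockout, where SOX18 and SOX7 were lower, the 5 summed to 461 to 528 in undifferentiated and 242 to 275 in differentiated cells. EMCN had a mean of 456 in the former, and without KDR the latter held 40.8 to 50.7. With BCOR loss in differentiated cells 3 were higher and 1 lower (62.3% of all genes called). The markers' part in the SOX18 and SOX7 values was not tested.

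FOXM1, the forkhead factor of dividing cells, fell on differentiation in wild-type, p53-knockout and p53;USP7 knockout cells and rose in p53;BCOR knockout cells. Wild-type libraries held 4837, 4615 and 4942 before and 2463, 2588 and 2639 after (log2 -0.90 ± 0.08), and the p53 knockout 5392, 5295 and 5019.6 and 2115, 1926 and 1951 (log2 -1.39 ± 0.08). The p53;BCOR knockout rose from 2810.0, 2656 and 2751 to 4358, 4796 and 4700.2 (log2 0.75 ± 0.08), an interaction of log2 2.14 ± 0.12. FT671 gave 612, 542 and 559, below every other group of the experiment, against 2566, 2599.7 and 2607 with vehicle (log2 -2.18 ± 0.08). USP7 loss in differentiated cells, at 1762, 1963 and 2034, overlapped the p53 knockout (log2 -0.06 ± 0.08, adjusted p = 0.555). No adjusted p among the called changes exceeded 8.5e-09.

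All 12 genes listed as FOXM1 targets were measured. They fell with FT671 (12 of 12, median log2 -2.09, all genes -0.01), with 65.1% of all genes called and 32.1% down. CENPF was at 8174 ± 227 with vehicle and 1814 ± 99.9 with FT671 (log2 -2.17 ± 0.06). PLK1, a mitotic kinase, was at 1191 ± 63.8 and 337 ± 14.3 in the same order (log2 -1.82 ± 0.06). In BCOR loss all 12 were lower in undifferentiated cells (median log2 -0.89, 69.4% of all genes called). In differentiated cells 9 were higher and 1 lower (median log2 0.47, 62.3% of all genes called). With USP7 loss in differentiated cells 11 of 12 were lower (median log2 -0.54, 63.7% of all genes called), while FOXM1 itself did not pass the test there. Differentiation lowered 7 in wild-type cells and 12 in the p53 knockout, with 33.4% and 33.5% of all genes called down.

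In differentiated cells FOXO1 and FOXO3 went in opposite directions with USP7 loss, BCOR loss and FT671. In undifferentiated cells FOXO1, FOXO3 and FOXO4 were higher, and FOXO6 lower, with USP7 loss and with BCOR loss. The FOXO6 call with USP7 loss was lost without the third undifferentiated p53;USP7 knockout library. FOXO1 was 85.1, 76.6 and 70.1 and 50.1, 53.5 and 39.99 in the p53 knockout before and after differentiation, 162, 147 and 153 and 436, 433 and 406 in the p53;USP7 knockout, and 538, 575 and 565 and 664, 645 and 629 in the p53;BCOR knockout. All libraries of both double knockouts lay above those of the p53 knockout, by log2 0.99 ± 0.11 and 3.13 ± 0.11 for USP7 loss and 2.84 ± 0.11 and 3.74 ± 0.11 for BCOR loss. Without the third undifferentiated p53;USP7 knockout library the first of these was 0.99. FT671 gave 288, 299 and 298 against 54.4, 45 and 53.9 with vehicle (log2 2.51 ± 0.11). The interaction with differentiation was log2 2.14 ± 0.16 for USP7 loss (2.14 without that library). In these FOXO1 changes the adjusted p reached 1.8e-08 at most.

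FOXO3 rose on wild-type differentiation, from 1475, 1459 and 1549 to 3095, 3057 and 2943 (log2 1.02 ± 0.08). It fell in the p53;USP7 knockout, from 1783, 1728 and 1286 to 1114, 1207 and 1178 (log2 -0.44 ± 0.08, or -0.59 without the third undifferentiated library), and in the p53;BCOR knockout, from 1945, 1913 and 1969 to 1608, 1528 and 1494 (log2 -0.33 ± 0.08). In the differentiated p53 knockout it was 3076, 2957 and 2970.1, above both (log2 -1.36 ± 0.08 for USP7 and -0.96 ± 0.08 for BCOR loss). Interactions were log2 -1.63 ± 0.11 (-1.77 without the third undifferentiated p53;USP7 knockout library) and -1.52 ± 0.11. FT671 gave 1541, 1538 and 1610.4 against 2956, 2913 and 2770.4 (log2 -0.88 ± 0.08). Of all these FOXO3 changes, the weakest had an adjusted p of 0.0005.

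FOXO4 rose from 212, 205 and 181 to 352, 418 and 333 in wild-type cells (log2 0.88 ± 0.12) and was 350.2, 350.3 and 318 with FT671 against 329, 345 and 339.6 with vehicle (log2 0.00 ± 0.12, adjusted p = 0.978). In differentiated cells its change with USP7 loss did not pass the test, at 236, 302 and 295 against 307, 313 and 330 in the p53 knockout. In the p53;BCOR knockout FOXO4 was 271, 252 and 252 and 237, 218 and 208, and the interaction was log2 -1.19 ± 0.17. FOXO6 was 123, 123 and 104 in the differentiated p53 knockout, 47.3, 49.8 and 49.8 in the p53;USP7 knockout and 20.1, 17.2 and 14 in the p53;BCOR knockout, without overlap (log2 -1.23 ± 0.15 and -2.71 ± 0.15, interaction -2.36 ± 0.22 for BCOR). The largest adjusted p among the called changes was 9.1e-07 (FOXO4). Of the 16 listed FOXO targets 15 were measured. With USP7 loss 9 were higher and 3 lower in undifferentiated cells (median log2 0.68, all genes 0.02), with 57.3% of all genes called. Without the third undifferentiated p53;USP7 knockout library these counts were 9 and 1 (median log2 0.52). In differentiated cells 9 were higher and 6 lower with USP7 loss (median log2 0.49), with 63.7% of all genes called. With BCOR loss the counts were 10 and 4 in undifferentiated and 5 and 4 in differentiated cells, and with FT671 7 and 3. Beside these 3 pairs of counts, 69.4%, 62.3% and 65.1% of all genes were called. SESN3, a stress-response gene, was 659 ± 25 in the undifferentiated p53 knockout, 2680.1 ± 153 in the p53;USP7 and 5059 ± 167 in the p53;BCOR knockout (log2 2.02 ± 0.07 and 2.94 ± 0.07). The first of these was 2.00 without the third undifferentiated p53;USP7 knockout library.

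FOXN4, which acts in retinal and spinal cord progenitors, was nearly absent from the p53;BCOR knockout. It was 216, 235 and 206 and 157, 146 and 164 in the p53 knockout before and after differentiation, 0, 0 and 0 and 2.11, 2.15 and 0 in the p53;BCOR knockout and 13.8, 12.7 and 6.51 and 15.4, 11.7 and 17.9 in the p53;USP7 knockout. No library of a double knockout reached the lowest p53-knockout library (log2 -4.26 ± 0.29, or -3.95 without the third undifferentiated p53;USP7 knockout library, and -3.31 ± 0.29 for USP7 loss). No undifferentiated p53;BCOR knockout library held a read, which allows up to 3 reads per library, and no fold change is given there. The differentiated libraries held 4 reads in all (log2 -6.19 ± 0.29). FT671 gave 44.3, 56.7 and 42.4 against 150.5, 129 and 159 (log2 -1.60 ± 0.29). Loss of p53 raised it in undifferentiated cells, from 56.7, 63.1 and 61.1 (log2 1.84 ± 0.29), while differentiated wild-type libraries held 196, 201 and 162 (log2 -0.25 ± 0.29, adjusted p = 0.571 for p53 loss), and that interaction was log2 -2.09 ± 0.41. Adjusted p was at most 0.00048 for the called changes.

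FOXE1, a thyroid factor, was low everywhere, and FOXI3, a factor of ectodermal appendages, held at most 147 in a library of the larger experiment. Both were lower in the double knockouts than in the p53 knockout. FOXE1 was 30.5, 24.3 and 20.5 in the differentiated p53 knockout, 4.83, 5.85 and 5.98 in the p53;USP7 knockout and 0, 0 and 1.07 in the p53;BCOR knockout (log2 -1.98 ± 0.29 for USP7 loss). With FT671 it was 42.3, 49.8 and 45.4, against 50.5, 40.1 and 48.1 with vehicle, in overlapping groups (log2 -0.01 ± 0.29, adjusted p = 0.982). FOXI3 was 134, 146 and 147 in the differentiated p53 knockout, 12.5, 10.7 and 19.9 in the p53;USP7 and 3.17, 3.22 and 4.3 in the p53;BCOR knockout (log2 -3.26 ± 0.40 and -4.98 ± 0.40). With FT671 it was 91.5, 84.6 and 97.7, against 76.7, 86.1 and 70.2 (log2 0.23 ± 0.40, adjusted p = 0.63). FOXD2 and FOXD4 also stayed at low counts, with group means of at most 29.6 and 40.4, and FOXD4 has near-identical copies among which reads may be split. No adjusted p among the called changes exceeded 7.6e-07 (FOXE1).

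FOXC1, a mesenchymal and neural crest factor, rose on differentiation in all 4 genotypes. It went from 1213, 1253 and 1279.7 to 3465, 3627 and 2891 in wild type (log2 1.41 ± 0.08), from 759, 819.8 and 755 to 4119, 4133 and 4139 in the p53 knockout (log2 2.41 ± 0.08), and from 2438, 2234 and 2219 to 3956, 3999.9 and 4036 in the p53;BCOR knockout (log2 0.80 ± 0.08). BCOR loss raised it in undifferentiated cells (log2 1.56 ± 0.08). FOXP1 was 1406, 1399.6 and 1532 and 1268, 1296 and 1209 in the p53 knockout and 465, 423 and 456 and 1276, 1259.8 and 1248 in the p53;USP7 knockout, so that only the undifferentiated groups stood apart (log2 -1.69 ± 0.06, or -1.70 without the third library, with an interaction of 1.69 ± 0.08, or 1.71). FOXP4 rose on differentiation most in the p53;USP7 knockout, from 778, 608 and 609.7 to 1506, 1595 and 1610.0 (log2 1.25 ± 0.07, against 0.53 ± 0.07 in the p53 knockout, interaction 0.72 ± 0.10). Without the third undifferentiated p53;USP7 knockout library the first and the last of these were 1.19 and 0.66. FOXN2 fell in wild-type differentiation from 491, 528 and 498 to 287, 236 and 309 (log2 -0.87 ± 0.11). FOXR2, which can stabilise MYCN in tumours, was 132, 122 and 138 with FT671 against 253, 271 and 292 (log2 -1.05 ± 0.14). FOXJ2, FOXJ3, FOXK1, FOXK2 and FOXN3 changed by at most 0.95 on the log2 scale in every comparison of 2 groups. In these changes the adjusted p reached 1.7e-06 (FOXP4) at most.

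**Figure D3:**
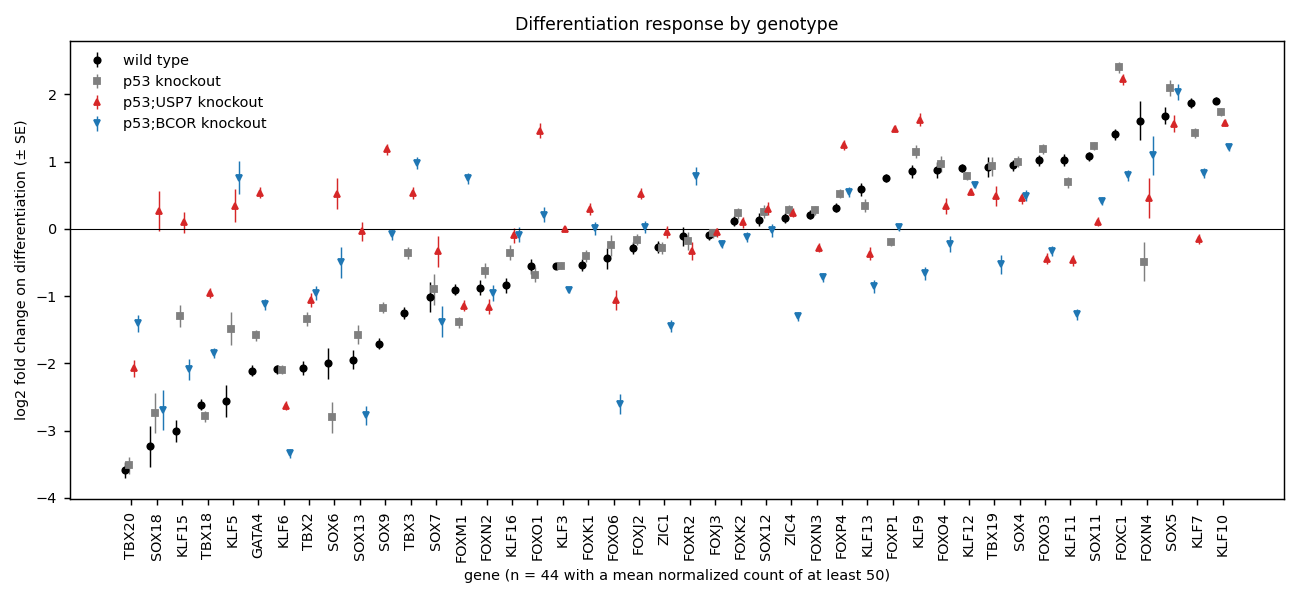
Log2 fold change on differentiation (points, limma, bars ± SE) of the members whose normalized count averaged 50 or more, in wild-type, p53-knockout, p53;USP7 knockout and p53;BCOR knockout cells, sorted by the wild-type value. GATA4 and SOX9 lie below 0 in wild type and p53 knockout and above 0 in the p53;USP7 knockout.

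Of the 8 T-box genes 4 fell and 2 rose on wild-type differentiation, beside 65.7% of all genes called (32.4% up and 33.4% down). TBX2, a repressor that belongs to the adrenergic neuroblastoma circuit, went from 11335, 11311 and 11605 to 2925, 2952 and 2327 in wild-type cells (log2 -2.07 ± 0.11). BCOR loss raised it, from 9344, 9785 and 8013 to 21536, 20407 and 19622 in undifferentiated cells (log2 1.19 ± 0.11) and from 3500.4, 3566 and 3633 to 10172, 10612 and 11074 in differentiated cells (log2 1.57 ± 0.11). TBX3, its closest relative, also fell on wild-type differentiation (log2 -1.24 ± 0.09), but it was lower in both double knockouts than in the p53 knockout. It was 5584, 6032 and 5403 in the undifferentiated p53 knockout, 1384, 1209 and 928 in the p53;USP7 knockout and 643, 632 and 665 in the p53;BCOR knockout (log2 -2.29 ± 0.09 and -3.13 ± 0.09; the first was -2.13 without the third library). In differentiated cells it was 4611, 4246 and 4349, 1687, 1628 and 1704 and 1276, 1330.4 and 1222 in the same order (log2 -1.39 ± 0.09 and -1.79 ± 0.09), and p53 loss had raised it from 2143, 2218 and 1928 (log2 1.07 ± 0.09). FT671 moved it less, to 1893, 1975 and 1708 against 2209, 2489 and 2301 (log2 -0.33 ± 0.09). Of all these changes, the weakest had an adjusted p of 0.0021 (TBX3).

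TBX18, a mesenchymal factor, fell from 619, 572 and 620.3 to 93.3, 98.2 and 101 in wild-type cells (log2 -2.62 ± 0.08). In differentiated cells it was 113, 118 and 124 in the p53 knockout, 864, 760.1 and 761 in the p53;USP7 knockout and 265, 246 and 239 in the p53;BCOR knockout (log2 2.74 ± 0.08 and 1.07 ± 0.08), and 358, 305 and 285 with FT671 against 116, 126 and 108 (log2 1.42 ± 0.08). TBX20, a heart and motor neuron factor, fell from 569, 528 and 586 to 51, 38.5 and 48.8 (log2 -3.59 ± 0.12), and the differentiated p53;USP7 knockout held 143, 123 and 128 against 42.3, 41.9 and 44.9 (log2 1.58 ± 0.12). FT671 gave 110.2, 119 and 112 against 41.7, 33.3 and 39.4 (log2 1.56 ± 0.12). TBX19, of pituitary corticotrophs, was 102, 125 and 117 and 80.2, 82.6 and 75.2 in the p53;BCOR knockout and 71.9, 50.4 and 68 and 121, 129 and 112 in the p53 knockout (BCOR interaction log2 -1.46 ± 0.20). TBX1 stood at 6.48 ± 1.53 with vehicle and 107 ± 5.13 with FT671 (log2 3.87 ± 0.52), and TBX4 and TBX6 had group means of at most 56.6 and 69.6. The largest adjusted p among these changes was 5.5e-07 (TBX19). The 8 fibroblast markers summed to 11942 to 12315 in the differentiated p53 knockout, 31997 to 33318 in the p53;USP7 knockout, 136224 to 139876 in the p53;BCOR knockout, 34217 to 37242 with vehicle and 63256 to 65537 with FT671. COL3A1 made up most of each sum, and without it the other 7 summed to 4196 to 4328, 11987 to 12344, 10129.6 to 10818, 4352 to 4416 and 6246 to 6472 in the same order. With USP7 loss 6 of the 8 were higher and 1 lower, with BCOR loss 5 and 3 (COL1A1, PDGFRB and THY1), and with FT671 5 and 1. Beside these, 63.7%, 62.3% and 65.1% of all genes were called, in that order. COL1A2 was at 0 in every vehicle and FT671 library. The markers' part in the TBX18 and SOX9 values was not tested.

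ZIC1 and ZIC4, neighbouring genes of cerebellar and dorsal neural development, moved most where BCOR was lost. ZIC1 was 808, 708 and 740.3 in the undifferentiated p53 knockout and 1411, 1405 and 1315 in the p53;BCOR knockout (log2 0.87 ± 0.09), and it fell to 511, 500.0 and 511 on differentiation (log2 -1.44 ± 0.09). ZIC4 was 293, 287 and 285 and 785, 768 and 766 in the same groups (log2 1.42 ± 0.07) and 328, 296 and 317 after differentiation (log2 -1.30 ± 0.07). BCOR interactions were log2 -1.15 ± 0.12 and -1.58 ± 0.10. Adjusted p was at most 6.3e-09 (ZIC1) for these changes. In comparisons of 2 groups that use no p53;BCOR knockout library, USP7 loss and FT671 included, no ZIC change exceeded 0.48 on the log2 scale.

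KLF7, which promotes axon growth, rose on differentiation in wild-type, p53-knockout and p53;BCOR knockout cells. It was 1111, 984 and 1045 and 3573, 3778 and 4153 in wild-type cells (log2 1.87 ± 0.07) and 1485, 1437 and 1472 and 3939.9, 4056 and 3823 in the p53 knockout (log2 1.43 ± 0.07). The p53;USP7 knockout held 1078, 1092 and 835 and 899.6, 943 and 856, in overlapping groups (log2 -0.15 ± 0.07, adjusted p = 0.0785). When the third undifferentiated library, at 835, was left out, these groups did not overlap and KLF7 fell (log2 -0.27, adjusted p = 4.8e-05). Its differentiated libraries were below the p53 knockout (log2 -2.13 ± 0.07, interaction -1.57 ± 0.10, or -1.70 without the third undifferentiated library). In the p53;BCOR knockout KLF7 was higher than in the p53 knockout, at 2919.7, 2929 and 2901 and 5323, 5161 and 5073 (log2 0.99 ± 0.07 and 0.40 ± 0.07). FT671 gave 1905, 1885 and 1828 against 4153, 3971 and 3865 (log2 -1.09 ± 0.07). With all libraries, no adjusted p among the called changes exceeded 2.6e-05.

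KLF9, a glucocorticoid-responsive factor that restrains axon growth, was higher with USP7 loss and with FT671. It was 249.7, 264 and 257 in the differentiated p53 knockout and 908, 908 and 927 in the p53;USP7 knockout (log2 1.83 ± 0.10), and 1113, 1005 and 1028 with FT671 against 352, 327 and 335 (log2 1.63 ± 0.10). In undifferentiated cells it was 99.2, 115 and 135, 298, 333 and 259 and 463, 568 and 498 in the p53, p53;USP7 and p53;BCOR knockouts (log2 1.35 ± 0.10 and 2.13 ± 0.10, the first 1.44 without the third library). The differentiated p53;BCOR knockout, at 327, 330.5 and 306, lay closer to the p53 knockout (log2 0.32 ± 0.10). Wild-type differentiation raised KLF9 from 139.7, 129 and 142 to 236, 243 and 272 (log2 0.86 ± 0.10). In these changes the adjusted p reached 0.00492 at most.

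KLF2 and KLF5, of the KLF branch that acts in endothelium and epithelium, and KLF6 were higher in undifferentiated than in differentiated wild-type cells. KLF2, at counts of 19.4 ± 2.26 and 4.48 ± 1.11 there, was 44.7 ± 2.3 in the differentiated p53;USP7 knockout against 2.6 ± 1.12 in the p53 knockout (log2 3.71 ± 0.27) and 28.4 ± 3.91 with FT671 against 3.89 ± 1.95 (log2 2.66 ± 0.27). KLF5 fell from 115, 110.2 and 111 to 14.4, 30.8 and 13.4 (log2 -2.56 ± 0.24). With FT671 it was 381, 396 and 345, above every other library of the experiment, against 32, 26.4 and 35.6 with vehicle (log2 3.54 ± 0.24). The differentiated p53;USP7 knockout held 17.4, 18.5 and 22.9 against 21.6, 21.4 and 17.6 in the p53 knockout, in overlapping groups (log2 -0.04 ± 0.24, adjusted p = 0.888). KLF6 fell from 1452, 1335 and 1584 to 343, 312 and 370.4 (log2 -2.09 ± 0.07) and was 5652, 5534 and 5399 in the undifferentiated p53;BCOR knockout against 1783, 1804 and 1765 in the p53 knockout (log2 1.63 ± 0.07). Of all the called changes, the weakest had an adjusted p of 1.4e-09 (KLF2). Of 10 listed KLF2 and KLF4 targets 5 were measured. In differentiated cells 4 were higher and 1 lower with FT671, 4 and 0 with USP7 loss and 2 and 2 with BCOR loss. Beside these, 65.1%, 63.7% and 62.3% of all genes were called, in that order. CDKN1A, a cell cycle inhibitor that is also a p53 target, was 651 ± 9.59 with vehicle and 12486 ± 234 with FT671 (log2 4.26 ± 0.09), and 209.5 ± 21 in the differentiated p53 knockout and 427 ± 50.3 in the p53;USP7 knockout (log2 1.02 ± 0.09).

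KLF10 and KLF11, both induced by TGF-beta, rose on wild-type differentiation. KLF10 went from 631, 635 and 636 to 2346, 2375 and 2436 (log2 1.91 ± 0.05) and rose in each of the other 3 genotypes as well (log2 1.74 ± 0.05, 1.58 ± 0.05 and 1.22 ± 0.05; the second was 1.59 without the third undifferentiated p53;USP7 knockout library). KLF11 went from 349, 319.5 and 343 to 664, 695 and 703 (log2 1.03 ± 0.09) but fell in the p53;BCOR knockout from 429, 419 and 409.8 to 163, 165 and 193 (log2 -1.27 ± 0.09), an interaction of log2 -1.96 ± 0.12. It fell in the p53;USP7 knockout from 828, 726 and 637 to 503, 516 and 555 (log2 -0.47 ± 0.09, or -0.56 without the third library, interaction -1.16 ± 0.12, or -1.26 without it). KLF13 had the same pattern on a smaller scale, from 4124, 4199 and 4176 to 5551, 5216 and 5148 in the p53 knockout, 4471, 4141 and 2765 to 2679, 2921 and 3044 in the p53;USP7 and 4896, 4868 and 5119.7 to 2732, 2772 and 2718 in the p53;BCOR knockout (interactions log2 -0.72 ± 0.14, or -0.93 without the third undifferentiated p53;USP7 knockout library, and -1.20 ± 0.14). KLF15, a metabolic regulator in liver and muscle, fell from 332, 304 and 259 to 28.8, 40.4 and 40.2 (log2 -3.00 ± 0.16) but overlapped in the p53;USP7 knockout, at 137, 142 and 85.7 and 131, 119 and 132. These groups did not overlap without the third undifferentiated library, at 85.7, and the change did not pass the test (log2 -0.13, adjusted p = 0.439). KLF3, KLF12 and KLF16 changed by at most 1.00 on the log2 scale in every comparison of 2 groups. The largest adjusted p among the called changes was 0.00013 (KLF13).

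GATA4, a cardiac and endodermal factor, fell on differentiation in every genotype of the larger experiment but the p53;USP7 knockout. Wild-type libraries held 3460.0, 3597 and 3549 before and 818, 857 and 788 after (log2 -2.11 ± 0.08), and the p53 knockout 3284, 3381 and 2969 and 1102, 1058 and 1048 (log2 -1.58 ± 0.08). The p53;BCOR knockout went from 3280.2, 3304 and 2985 to 1511, 1383 and 1506 (log2 -1.12 ± 0.08). The p53;USP7 knockout rose from 3682, 3419 and 2588 to 4545, 4619 and 4730.4 (log2 0.54 ± 0.08, or 0.38 without the third library), an interaction of log2 2.12 ± 0.12 (1.97 without it). With FT671 GATA4 was 3741, 3848 and 3694, against 884, 996 and 939.8 with vehicle (log2 2.00 ± 0.08). Adjusted p was at most 2.1e-06 for these changes. GATA5 was near 0 in differentiated wild-type cells and reached 41.9 ± 5.3 with FT671 and 52.2 ± 3.8 in the differentiated p53;USP7 knockout, against 0.321 ± 0.555 with vehicle and 8.79 ± 1.65 in the p53 knockout. EPCAM, the only measured endoderm marker of 7, was between 10.8 and 12.6 with vehicle and between 31.6 and 37.4 with FT671. In differentiated cells it was between 10.7 and 20.6 in the p53 knockout and between 6.98 and 16.6 in the p53;USP7 knockout, in overlapping groups. Its part in the GATA values was not tested.

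Of 26 relatives and partners outside the rule (other T-box genes, SP, GLI and GLIS factors, GATA2, GATA3 and their cofactors), 19 were measured. In wild-type differentiation 5 rose and 11 fell (median log2 -0.51, all genes -0.01, 65.7% of all genes called). GATA2, a sympathetic neuron factor, fell from 13117 ± 116 to 2529 ± 289 (log2 -2.38 ± 0.09) and GATA3 from 8335 ± 170.0 to 2412 ± 94.5 (log2 -1.79 ± 0.08). With USP7 loss in differentiated cells 8 were higher and 9 lower, with BCOR loss 8 and 9, and with FT671 9 and 6. Beside these, 63.7%, 62.3% and 65.1% of all genes were called, in that order. GATA3 was 1738 ± 55.9 in the differentiated p53 knockout and 637 ± 27.2 in the p53;BCOR knockout (log2 -1.45 ± 0.08).

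FT671 and USP7 loss were compared in differentiated cells, where their controls are different libraries. The inhibitor acted on wild-type cells and the knockout lacked p53 as well, so the agent and the p53 state cannot be told apart in any difference. Of 43 members called with USP7 loss and 41 called with FT671, 31 were called in both in the same direction, which is 72.1% of the first and 75.6% of the second. Over all genes the same shares were 67.6% and 66.2%. SOX7 was the only member called in opposite directions, with the limits given above. The effect of FT671 minus that of USP7 loss was called positive for 20 members and negative for 15 (43.3% of all genes called, 23.7% up and 19.6% down). It was a comparison added after the values were seen. A positive difference includes genes that FT671 lowered less than USP7 loss did, such as SOX11 and KLF7. KLF5 was called higher with FT671 alone and FOXI3 lower with USP7 loss alone, and both effects differed (difference log2 3.59 ± 0.34 and 3.49 ± 0.57). FOXM1 was lower with FT671 than with USP7 loss (difference log2 -2.12 ± 0.12), and SOX6 and SOX9 rose less with FT671 (difference log2 -3.02 ± 0.33 and -1.25 ± 0.11). For GATA4, KLF9, TBX20, SOX4 and KLF12 the difference was log2 -0.11 ± 0.12, adjusted p = 0.458, -0.20 ± 0.14, adjusted p = 0.25, -0.03 ± 0.17, adjusted p = 0.914, 0.25 ± 0.12, adjusted p = 0.0854 and -0.03 ± 0.08, adjusted p = 0.792, in that order. No adjusted p among the called differences exceeded 1.1e-05 (FOXI3).

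**Figure D4:**
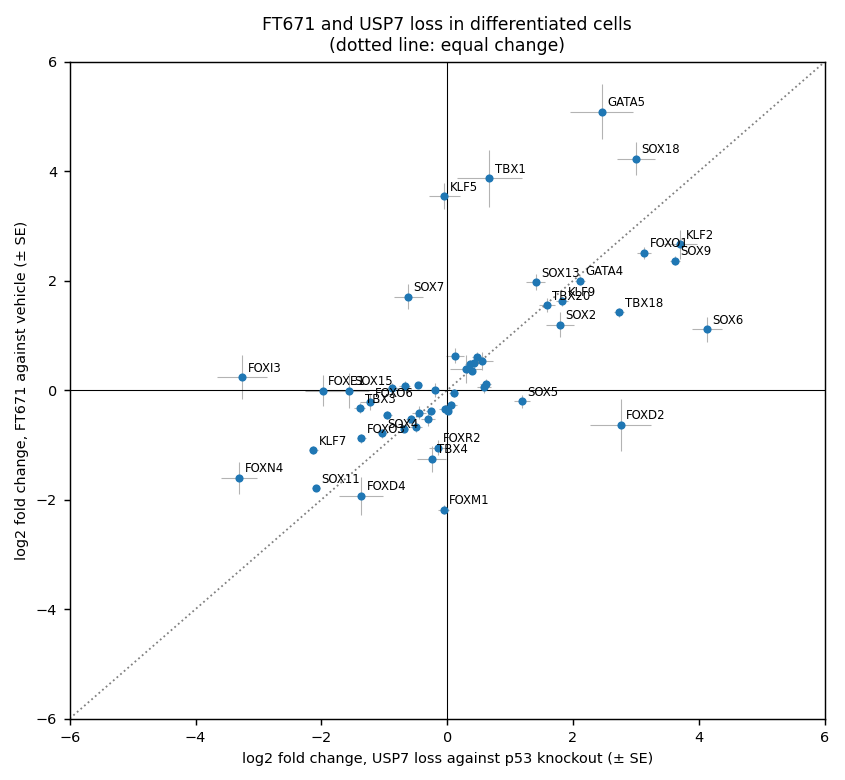
Log2 fold change with FT671 against vehicle (vertical axis) and with USP7 loss against the p53 knockout (horizontal axis) in differentiated cells, 1 point per member (n = 55) with bars ± SE. SOX9, FOXO1, GATA4 and KLF9 lie to the upper right, SOX11 and KLF7 to the lower left, and KLF5, SOX7 and FOXM1 away from the diagonal.

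Vehicle alone moved 13 members up and 1 down against untreated differentiated cells, with 8.7% of all genes called, 4.33% up and 4.38% down. The 14 calls became 8 without the first or the third untreated library and 9 without the first or second vehicle library. Beside SOX9, TBX2 was higher, at 4209, 4278 and 4541 against 2925, 2952 and 2327 (log2 0.67 ± 0.11), and KLF10 lower, at 1744, 1966 and 1740.2 against 2346, 2375 and 2436 (log2 -0.40 ± 0.05). SOX6 was 35.9, 41.1 and 36.6 against 12.5, 10.6 and 20.1 (log2 1.38 ± 0.23). In these changes the adjusted p reached 0.0002 (SOX6) at most. The labels do not say whether these groups were cultured at the same time.

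In the heterozygote experiment, differentiation moved 23 of 54 members up and 23 down in wild-type cells (79.3% of all genes called, 39.7% up and 39.6% down) and 20 up and 25 down in USP7-heterozygous cells (76.4% of all genes called, 38.2% up and 38.2% down). Of the 45 members called in each experiment's wild-type differentiation, among the 53 measured in both, 38 were called in the same direction, which is 84.4% of each. Over all genes the same shares were 83.7% of the larger and 70.5% of the heterozygote experiment. FOXI3 and FOXJ2 were called in opposite directions. SOX4 went from 4548 and 4348 to 11391 and 11475 (log2 1.36 ± 0.04), GATA4 from 2351 and 2355 to 657 and 616 (log2 -1.88 ± 0.05) and FOXM1 from 5528 and 5534 to 1987 and 1969 (log2 -1.48 ± 0.04), each without overlap. SOX9 was not called here, with 376 and 359.7 before and 319 and 382 after (log2 -0.07 ± 0.09, adjusted p = 0.463). KLF7 started higher than in the larger experiment and rose less, from 2949.9 and 2816 to 3789 and 3766 (log2 0.39 ± 0.04), although the experiments were normalized separately. Of all the called changes, the weakest had an adjusted p of 1.3e-08 (KLF7).

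Heterozygous loss of USP7 gave 7 members higher and 8 lower in undifferentiated cells (25.4% of all genes called, 11.4% up and 14.1% down) and 7 higher and 15 lower in differentiated cells (21.3% of all genes called, 9.56% up and 11.7% down). FOXE1 was almost absent, at 1.01 and 1 in undifferentiated heterozygous cells against 35.1 and 35.8 in wild type, and at 0.997 and 0.967 against 24.4 and 28.4 in differentiated cells, without overlap. Each heterozygous group held 2 reads in all, so no fold change is given. FOXN4 was 42.5 and 48.2 against 149.6 and 150.2 in undifferentiated and 109 and 85.1 against 171 and 179 in differentiated cells (log2 -1.71 ± 0.15 and -0.86 ± 0.15). These are the same directions as with full USP7 loss, measured in other libraries. With FT671, FOXN4 was lower and FOXE1 did not pass the test. The largest adjusted p among the heterozygote's changes was 0.00014. In the larger experiment FOXE1 was also lower with p53 loss alone in undifferentiated cells, at 8.1, 13.1 and 11.7 against 36.5, 38.1 and 33.1.

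FOXO3 and TBX3 differed mainly in differentiated heterozygous cells. Where values stand against each other here, wild type comes first. FOXO3 rose from 1661 and 1634 to 3222 and 3091 in wild type but went from 1916 and 2030.3 to 1835 and 1768 in the heterozygote (log2 -0.81 ± 0.05 in differentiated cells, interaction -1.07 ± 0.07). TBX3 was 2284 and 2068 in wild-type and 1216 and 1221 in heterozygous differentiated cells (log2 -0.83 ± 0.05, interaction -0.86 ± 0.07), and 4032 and 4059.8 against 4043 and 4171 before differentiation. KLF11 was 163 and 179 against 311 and 359 in undifferentiated and 635 and 679.7 against 579.5 and 537 in differentiated cells (log2 0.97 ± 0.09, interaction -1.20 ± 0.12). TBX18 was 101 and 101 against 159.6 and 232 in wild-type and heterozygous differentiated cells (log2 0.92 ± 0.13), and TBX2 3843 and 3761 against 2581 and 2722 (log2 -0.52 ± 0.04). SOX4 was 11391 and 11475 against 9477 and 9909 (log2 -0.24 ± 0.04), and SOX11 8876 and 9757 against 8196 and 8519.8 (log2 -0.16 ± 0.04), a call that was lost without the second wild-type library (log2 -0.09) or the first heterozygous one (log2 -0.13). SOX9 was 319 and 382 against 289 and 296 (log2 -0.26 ± 0.09), but this call was lost without either heterozygous library, without the second wild-type library (log2 -0.13) and with DESeq2 (adjusted p = 0.188). GATA4 was 657 and 616 against 793 and 843 (log2 0.36 ± 0.05). With all libraries and limma, adjusted p was at most 0.0442 (SOX9) for these changes. Schwann cell and glial markers summed to 2427 in 1 differentiated heterozygous library and to at most 422 in the other 7 of the experiment, and their part in these values was not tested.

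**Figure D5:**
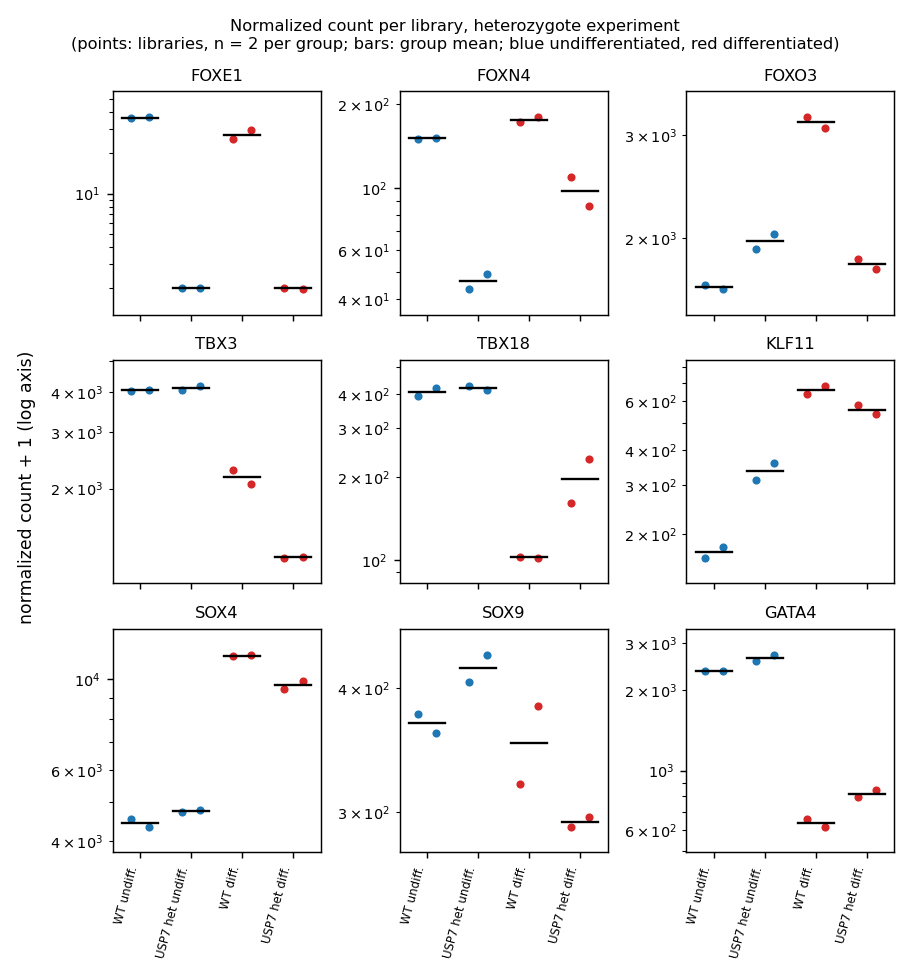
Normalized count per library (points, log axis of normalized count + 1) of 9 transcription factors in wild-type and USP7-heterozygous cells before and after differentiation, with n = 2 libraries per group and bars at the group mean. FOXE1 and FOXN4 are low in heterozygous cells, and FOXO3 and TBX3 are low in them after differentiation.

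Between the heterozygote and the knockout, 16 members were called in the same direction in differentiated cells, of 42 called with USP7 loss and 22 called in the heterozygote among the members measured in both experiments, which is 38.1% and 72.7%. Over all genes these shares were 21.4% and 61.3%. Among the members TBX2 and, on the call that was lost above, SOX9 were called in opposite directions. With FT671, 16 were called in the same direction, of 39 called with FT671 and the same 22, which is 41% and 72.7%, against 19.6% and 57.6% over all genes, and SOX9 was again opposite. Interaction with differentiation in the heterozygote was called for 5 members in the positive and 11 in the negative direction (16.2% of all genes called, 8.76% up and 7.44% down), 16 in all against 10 with DESeq2.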

How the data were processed

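Polyadenylated RNA was sequenced in 38 libraries of SH-SY5Y cells. The submitters' processing notes name STAR, HTSeq, DESeq2 and hg19, without versions. In the deposited signal tables each value proved to be a read count scaled by a factor particular to its library, with 1 added on top. This was inferred from the numbers themselves: with the 1 taken off, 100% of values lay within 0.01 of a whole read. Libraries held 16149022 to 17946790 reads, and factors ran from 0.9217 to 1.0449. Of the columns, 6 (undifferentiated vehicle or FT671 cells) correspond to no sample here and were set aside. In the heterozygote experiment, replicate numbers of columns and titles disagree in 3 of 4 groups, so columns were tied to groups alone, and first and second mean column order. Whether reads were counted by strand is not given in the sources used here, so overlapping or antisense genes may share reads.

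Genes averaging 5 or more in an experiment (15351 and 14820) were tested with limma 3.58.1 (R 4.3.3; trended, robust variance) on log2 of the deposited normalized count + 1, which understates changes of low genes. All groups of one experiment entered a single model. Benjamini-Hochberg adjustment ran over all its genes, and adjusted p below 0.05 made a call. No fold change is printed where some group had 3 reads or fewer of the gene in total. The procedure was tested on simulated data. Of 23 comparisons, that of FT671 with USP7 loss was added once values had been seen. Members, gene lists and tests were chosen with earlier results of these data known. Members averaging at least 50 and called with a log2 change of 1 or more are shown library by library, other members by means, ranges or counts, and up to 4 list genes are named per comparison, those of smallest adjusted p. The level of 1 targeted gene is not reported here. Promoters come from RefSeq and were found for 43 of 56 members.

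Deviations from group means were correlated between libraries of equal replicate number in 45 pairs of groups. All 3 correlations exceeded 0.1 (0.151, 0.112 and 0.226) only between undifferentiated p53-knockout and p53;USP7 knockout cells. The last of these is between the 2 libraries that stand apart. The labels do not say whether equal numbers mark pairs. The values reported therefore come from a fit without pairing, and a replicate block over all groups served as an alternative. Alternatives were 0.5 or 5 as the added value, no filter, a model of the compared groups alone, a replicate block (for heterozygote differentiation by column number, chosen after seeing the data), TMM rescaling, edgeR 4.0.16 and DESeq2 1.42.0 on the recovered reads, and omission of each library. A library left alone in its group was assumed to vary like the other groups. The special attention to the 2 libraries that stand apart was decided after seeing the data.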

Additional observations from a re-analysis of the deposited data

Results flagged for a closer look

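Each fold change below is the test of a difference between groups: how far the effect of losing a gene differed between undifferentiated and differentiated cells, in limma's interaction term. A positive value means that the effect was higher in differentiated cells. For USP7 loss it was log2 4.74 for SOX2, 3.33 for SOX6, 3.00 for SOX18, 2.36 for SOX9, 2.14 for FOXO1, 2.12 for GATA4, 1.69 for FOXP1, 1.54 for SOX13 and 0.72 for FOXP4. It was negative for FOXO3 (log2 -1.63), KLF7 (log2 -1.57), KLF11 (log2 -1.16), SOX11 (log2 -1.12) and KLF13 (log2 -0.72). For BCOR loss it was log2 2.31 for SOX6, 2.14 for FOXM1 and 1.09 for SOX9. It was negative for FOXO6 (log2 -2.36), KLF11 (log2 -1.96), ZIC4 (log2 -1.58), FOXO3 (log2 -1.52), TBX19 (log2 -1.46), KLF13 (log2 -1.20), FOXO4 (log2 -1.19) and ZIC1 (log2 -1.15). For p53 loss it was log2 -2.09 for FOXN4. For USP7 heterozygosity it was negative for KLF11 (log2 -1.20), FOXO3 (log2 -1.07) and TBX3 (log2 -0.86).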

How the results depend on the processing

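Of 23 counts of called members under the alternatives, 330 of 336 values stayed within 1.5 times the count reported. When only the 2 groups were fitted, 26 members were called for USP7 loss in undifferentiated cells, against 40. With DESeq2, 10 were called for the interaction of heterozygosity with differentiation, against 16. Leaving out 1 library gave 8 to 11 called members for vehicle against untreated cells, against 14. With the replicate block, USP7 loss in undifferentiated cells, where libraries of equal number were correlated, gave 39 called members against 40 without it. The block moved no other count by more than 2. A replicate block by column number, chosen after seeing the data, gave 44 called members for differentiation of heterozygous cells, against 45 without it. No paired analysis was possible for the other heterozygote comparisons because the groups compared share fewer than 2 column numbers.

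Of the named fold changes, 191 were called, and none of these 191 changed sign under any alternative run. A change of sign was not counted where neither fit called the value. Outside left-out libraries 1 call was lost, that of SOX9 in differentiated heterozygous cells with DESeq2 (adjusted p = 0.188), and 3 fold changes that had not passed the test did so: SOX5 with FT671 after TMM rescaling (adjusted p = 0.0449) and with edgeR (0.0284), and the differences between FT671 and USP7 loss of KLF9 (0.0464) and SOX4 (0.00119) when only the groups compared were fitted. The cause was not tested. Leaving out 1 library lost the calls of SOX4, SOX7, SOX9 and SOX11 given beside those genes. It also brought SOX5 with FT671 (adjusted p = 0.0255 without the first FT671 library) and KLF7 in p53;USP7 knockout differentiation (4.8e-05 without the third undifferentiated library) past the test. With 2 libraries a group, small changes in the heterozygote experiment rest on single libraries. For GATA5, FOXD2, FOXI3, FOXE1, KLF2 and TBX1, counts of a few reads in some groups limit the precision.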
